A study of Mus musculus with 5 samples.

Results

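Of 31053 genes counted in single CD4 T cells of the injured mouse kidney, 39 genes of DNA replication and mitosis are described here. They were chosen by name from the pathway, with earlier results of these data known, and all 39 were present in the counts. The study is on the role of kidney regulatory T cells (Tregs) with ST2, which is the receptor for IL-33 and the product of Il1rl1. The 5 libraries were made from 10-week-old mice whose kidneys had been through unilateral ischemia-reperfusion injury, in which the blood flow to a single kidney is stopped and restored, and from which CD4 T cells were then sorted. The 2 control libraries came from Il1rl1fl/fl mice, whose Il1rl1 gene is flanked by loxP sites, and the 3 knockout libraries were from Il1rl1fl/fl Foxp3YFP-Cre mice. Here Cre, which cuts out the flanked gene, is driven by Foxp3, whose product is the defining transcription factor of Tregs. All mice were injured and all carried the floxed gene. The Cre allele was present in the knockout group alone, so its presence and the loss of Il1rl1 cannot be told apart. The labels do not say that the libraries came from separate animals, so p-values measure the spread between these libraries, which may be technical.

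A cell that divides first licenses its replication origins, when the MCM helicase is loaded on DNA, then copies the DNA with PCNA as the sliding clamp and nucleotides made by ribonucleotide reductase and thymidylate synthase. E2F factors switch these genes on as the cell leaves G1, and cyclin-dependent kinases later drive it into mitosis, where kinetochores, the checkpoint and the spindle part the chromosomes. T cells divide in bursts after they meet antigen, and Ki-67, the product of Mki67, is the usual marker of a cycling lymphocyte. The genes were read in 6 roles: licensing (8 genes, with Mcm2 to Mcm7), synthesis (6, with Pcna, Tyms, Rrm1 and Rrm2), E2F and repair (5, with E2f7, E2f8 and Rad51b), cyclins and kinases (6, with Cdk1, Ccnb1 and Cdk6), chromosomes and checkpoint (10, with Top2a, Mki67, Cenpp and Bub1) and spindle and cytokinesis (4, Tpx2, Kif11, Diaph3 and Cit).

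The promoters of 3 genes are shown, as an example each of a replication gene and a mitosis gene and for Cdk6, which alone did not pass in the split of Foxp3-negative Cd4 cells by Mki67 below. Each is 250 bases before and 50 bases after the gene's first listed start in RefSeq (GRCm38.p6). Of the 39 genes, 34 had one. Capitals mark 3 kinds of letters, searched on both strands: E2F letters (TTTGGCGC, TTTCGCGC, TTTCCCGC or TTTGCCGC), the cell cycle homology region (CHR, TTTGAA or TTCGAA) and the CCAAT box (CCAAT). The first promoter is that of the licensing gene Mcm6 (chr1:128359656-128359955, minus strand), the second that of the mitotic topoisomerase gene Top2a (chr11:99024140-99024439, minus strand), and the third that of the G1 kinase gene Cdk6 (chr5:3343643-3343942, plus strand).
Mcm6: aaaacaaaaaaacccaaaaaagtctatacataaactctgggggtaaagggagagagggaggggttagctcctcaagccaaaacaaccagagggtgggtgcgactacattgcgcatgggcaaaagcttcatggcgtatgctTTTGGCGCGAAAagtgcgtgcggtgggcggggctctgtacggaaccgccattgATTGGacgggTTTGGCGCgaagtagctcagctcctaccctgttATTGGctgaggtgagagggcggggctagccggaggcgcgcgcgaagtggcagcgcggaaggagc
Top2a: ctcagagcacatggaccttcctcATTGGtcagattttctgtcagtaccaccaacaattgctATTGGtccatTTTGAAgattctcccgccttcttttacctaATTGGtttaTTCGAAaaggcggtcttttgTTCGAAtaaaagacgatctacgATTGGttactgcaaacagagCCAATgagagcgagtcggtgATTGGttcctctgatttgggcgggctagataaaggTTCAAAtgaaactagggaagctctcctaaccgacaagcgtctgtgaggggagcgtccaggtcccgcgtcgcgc
Cdk6: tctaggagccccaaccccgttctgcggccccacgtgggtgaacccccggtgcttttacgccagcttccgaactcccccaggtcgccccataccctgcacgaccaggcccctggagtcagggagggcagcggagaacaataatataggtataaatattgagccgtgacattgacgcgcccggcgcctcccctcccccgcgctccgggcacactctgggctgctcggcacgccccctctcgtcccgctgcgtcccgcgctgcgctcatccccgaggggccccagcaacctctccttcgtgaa
The Mcm6 promoter held 3 matches to the E2F letters, of which a pair overlapped, and 2 CCAAT boxes. The Top2a promoter held 4 CHR and 6 CCAAT matches and no E2F letters, and the Cdk6 window held none of the 3 kinds. That window begins at position 3343643, whereas the annotated span of Cdk6 begins at 3341485, so the result holds for this start only.

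Over the whole set, E2F letters were found in 9 of 34 promoters, against 2.265% of all 32851 promoters in the table. They were present in 7 of the 13 promoters of licensing and synthesis genes and in 1 of 12 promoters of genes that act in mitosis (Top2a, Mki67, Cenpe, Cenpf, Cdk1, Ccnb1, Ccnb2, Bub1, Bub1b, Plk1, Birc5 and Kif11). The CHR letters were found in 3 of 13 replication and 9 of 12 mitosis promoters (14 of 34 in all, against 19.226% of all promoters). CCAAT boxes were found in 27 of 34 promoters, against 37.408%, and in 11 of 13 and 11 of 12 of those classes. A match describes letters in a window and does not show that a factor binds there.

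The 5 libraries held 31104939 to 152275841 unique molecular identifiers (UMIs, counted transcripts), with medians of 3786 to 13534 per retained cell, and 38417 of 40778 barcodes passed the filters (at least 500 genes and under 10% mitochondrial UMIs). Cells were gated by UMIs: 2995 cells with Foxp3 (the Foxp3 gate), 26978 with Cd4 and no Foxp3 (the Foxp3-negative Cd4 gate), 719 with both Cd8a and Cd8b1 (the CD8 gate) and 3024 with at least 5 UMIs of C1qa, C1qb and C1qc (the macrophage gate). A missing Foxp3 UMI does not show a missing transcript, so the second gate can hold Tregs. Of the macrophage gate, 2667 cells also met another gate, and a UMI of the T cell gene Cd3e was seen in 79.8% to 92.2% of its cells by library, so the gate holds barcodes that carry both T cell and macrophage transcripts. Cd3e was seen in 79.1% to 93.5% of Foxp3-negative Cd4 cells and the macrophage gene C1qa in 9.86% to 13.4%. Il1rl1, the targeted gene, stood at 74.2 and 54.8 CPM (counts per 1000000 UMIs of the gate) in the Foxp3 gate of the controls and at 128, 53.9 and 51.6 in the knockouts. The files give 3′ tags of the gene and the labels do not say which exons are removed, so these levels check nothing. In the Foxp3-negative Cd4 gate it stood at 8.87 and 9.04 in the controls and at 57.6, 35.3 and 24.1 in the knockouts.

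Cells that carried Mki67 carried nearly the whole program. Each cell was thinned to 2000 UMIs, with shallower cells left out, and the Foxp3-negative Cd4 gate was taken after thinning. Cells that lost their Foxp3 UMIs and kept a Cd4 UMI thus fell into this gate. Counts were summed in each library for cells with and without an Mki67 UMI. Of the other 38 genes, 37 were higher in the cells with Mki67 by edgeR's quasi-likelihood test, each in all 5 libraries, and 0 were lower. Of all 10411 genes tested, 12.7% were called higher, 9.53% were called lower and 14.3% were higher in each library, and the median log2 difference was 3.94 over the 38 genes and -0.01 over all genes. Cdk6 alone did not pass.

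The genes of mitosis had large differences. Top2a, which untangles chromosomes before they part, stood at 714.5 ± 141.8 CPM (SD, n = 5 libraries, here and below scaled by edgeR's TMM factors) in cells with Mki67 and at 52.6 ± 7.62 in cells without, and its ratio lay between 12.2 and 15.1 in the 5 libraries. Cenpf, a kinetochore protein, stood at 242.1 ± 50.2 CPM against 4.05 ± 0.952, with ratios of 53.7 to 65.1. For both genes the ratios of control and knockout libraries overlapped. The log2 differences were 5.95 (SE 0.23) for the checkpoint kinase Bub1, 5.90 (SE 0.19) for the cyclin Ccna2, 5.75 (SE 0.15) for Birc5, which encodes the chromosomal passenger protein survivin, and 5.29 (SE 0.17) for the mitotic cyclin Ccnb2. The role medians were 4.45 for chromosomes and checkpoint, 4.27 for cyclins and kinases and 4.12 for spindle and cytokinesis. The E2F and repair genes lay in the same range, with a median of 4.58. Among them, Rad51b, a gene of homologous recombination, had the smallest difference, 2.85 (SE 0.10), and Neil3, a DNA glycosylase, had the largest, 6.39 (SE 0.20), although 1 knockout library had no Neil3 UMI in cells without Mki67.

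The genes of licensing and synthesis had smaller differences, a comparison between roles that was not tested. The licensing genes had a median of 1.49, from 0.90 for Mcm4 to 4.01 for Cdc6, which loads the helicase. All 6 MCM subunits passed. Mcm6 rose by 0.95 (SE 0.07), from 66.3 ± 7.87 to 129.3 ± 17.8 CPM, and its ratio lay between 1.78 and 2.15 in the 5 libraries. Mcm5 rose by 1.69 (SE 0.14), from 17.0 ± 2.42 to 53.0 ± 23.4 CPM. Pcna rose by 1.33 (SE 0.10), from 36.3 ± 2.98 to 90.3 ± 22.0 CPM. Within synthesis, Rrm2, the regulated subunit of ribonucleotide reductase, rose by 4.66 (SE 0.13), while Rrm1, its partner subunit, rose by 2.01 (SE 0.10). UMIs of the MCM subunits and Pcna were thus also found in cells without an Mki67 UMI at this depth.

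Cdk6, which phosphorylates the retinoblastoma protein in G1, was found in both kinds of cells. It stood at 136.6 ± 32.9 CPM in cells with Mki67 and at 148.0 ± 41.7 in cells without. The controls had ratios of 0.873 and 1.084 and the knockouts 0.881, 0.851 and 0.990, and the log2 difference was -0.12 (SE 0.07, edgeR adjusted p = 0.24). With Top2a in place of Mki67 to split the cells, it was -0.11 (edgeR adjusted p = 0.33). The miss does not show that the levels were equal.

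**Figure D1:**
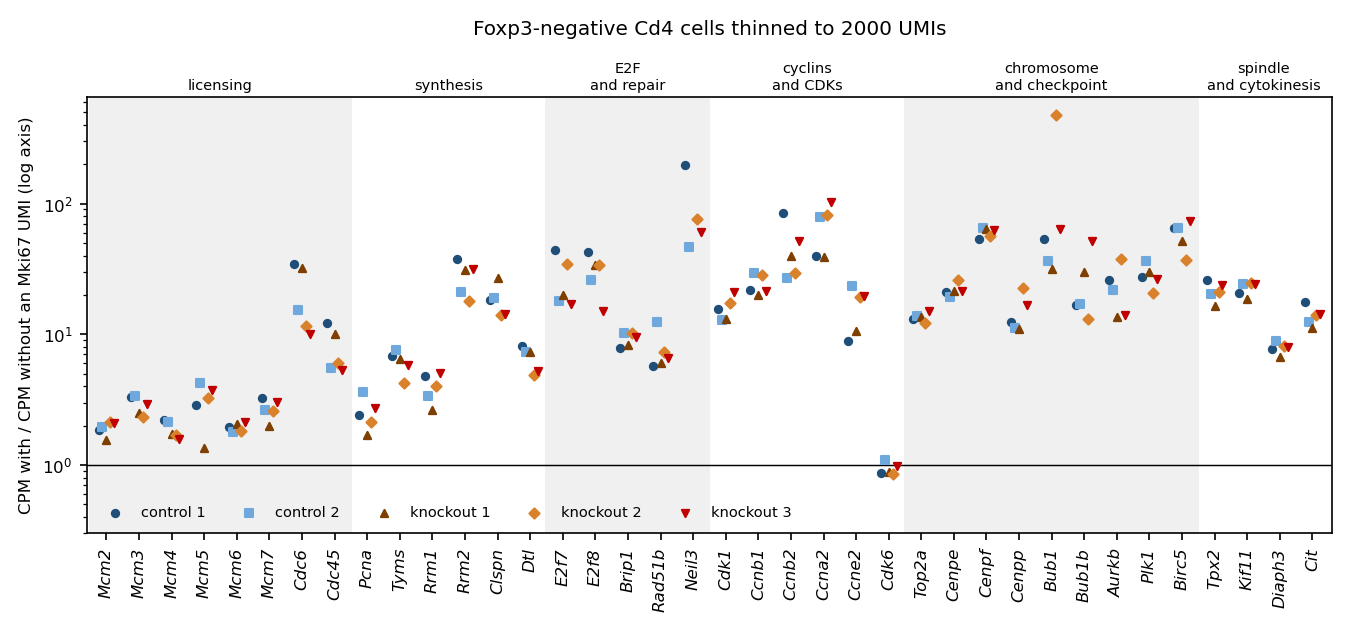
Ratio of CPM in cells with an Mki67 UMI to CPM in cells without (vertical log axis, no unit) for 38 genes grouped by role, with 1 point for each of 5 libraries, in Foxp3-negative Cd4 cells thinned to 2000 UMIs. Cdk6 lies at 0.851 to 1.084, Top2a at 12.2 to 15.1, and ratios against a library without a UMI (Neil3 in knockout replicate 1) are not drawn.

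Other cell cycle genes, taken from 3 lists, were split in the same way. Of 32 further replication genes, 31 were higher in cells with Mki67 (median 1.43). Among those with the smallest p were the polymerase subunit Pola1 at 1.57 (SE 0.07) and the ATPase Atad2 at 1.28 (SE 0.06). Of 40 further mitosis genes, all 40 were higher (median 3.63). Here the smallest p belonged to the kinetochore scaffold Knl1 at 5.07 (SE 0.10), the chromatin protein Hmgb2 at 2.17 (SE 0.05) and the spindle protein Nusap1 at 5.20 (SE 0.12). The 17 genes of G1 control were mixed, with 11 higher and 3 lower. The inhibitor Cdkn2c and the factors E2f2 and E2f1 were higher by 1.85, 1.46 and 2.09, whereas the D cyclins Ccnd3 and Ccnd2, partners of CDK6, were lower, with values of -0.45 and -0.29, as was the inhibitor Cdkn1b (p27), with -0.28.

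With the same split in the Foxp3 gate, 26 of the other 38 genes passed the filter on low counts, and 21 of them were higher, against 3.56% of 4718 genes tested. In this smaller gate a gene with few counts can pass the filter through the cells with Mki67 alone, so the filter favours genes that are higher there and the count is a description that does not stand for all 38. Top2a stood at 516.1 ± 170.3 CPM with Mki67 and 62.6 ± 9.69 without, a log2 difference of 3.06 (SE 0.19). Pcna, Mcm4, Mcm6 and Rad51b had values of 0.83 to 1.25 above 0 with edgeR adjusted p of 0.052 to 0.070. Cdk6 stood at 203.3 ± 56.6 against 209.6 ± 43.8 CPM, a difference of -0.18 (SE 0.21). The count fell to 2 with cells thinned to 1000 UMIs and was 36 with 4000. The shares of all genes called at those depths are not given here, so these counts are description only.

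No gene of the program passed the test between knockout and control in any gate after adjustment over all genes. In the Foxp3-negative Cd4 gate, edgeR called 0 of the 39 genes and 0% of 13959 genes, and at an unadjusted p under 0.05 it found 1 of the 39 higher and 0 lower, against 2.29% and 2.61% of all genes. DESeq2 called 1 of the 39, and it was the same gene, Cdk6. The share of all genes that DESeq2 called is not given here. All 39 log2 fold changes were above 0, against 50.4% of all genes, with a median of 0.35 (range 0.06 to 0.72) over the 39 and 0.00 over all genes. The genes vary together, so this common sign does not count as 39 separate results.

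The shift of the median lay mainly in 1 library. Knockout replicate 3 was the highest of the 5 libraries for 38 of the 39 genes. Its median ratio to the control mean was 1.86, whereas those of knockout replicates 1 and 2 were 0.903 and 1.05. Knockout replicate 2 was above both controls for 18 of the 39 genes and below both for 3. The same counts over all genes are not given here, so they are description only. Without knockout replicate 3, the median log2 fold change was -0.03, and the mean of the other 2 knockout libraries was above the control mean for 14 genes and below it for 25. In sum, macrophage markers were also highest in knockout replicate 3, while control replicate 2 lay above knockout replicates 1 and 2. All 7 of them were detected in every library of this gate, and their sum was 421 and 863 CPM in the controls, 640 and 745 in knockout replicates 1 and 2 and 987 in replicate 3. Their part in the result was not tested.

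The genes of mitosis had this pattern. Mki67 stood at 324.3 and 374.6 CPM in the controls and at 323.9, 427.8 and 693.9 in the knockouts, a log2 fold change of 0.46 (SE 0.31). Top2a stood at 234.8 and 271.8 against 228.8, 306.7 and 493.8 (0.44, SE 0.31). In both, knockout replicate 1 lay below both controls, replicate 2 above both and replicate 3 far above. Bub1 stood at 16.7 and 16.4 CPM in the controls and at 16.8, 19.0 and 37.9 in the knockouts (0.57, SE 0.35), and its close relative Bub1b at 18.0 and 20.5 against 18.6, 22.4 and 39.5 (0.48, SE 0.31). Cdk1, the kinase that starts mitosis, stood at 18.5 and 21.8 CPM against 20.3, 19.0 and 37.5 (0.34, SE 0.30). Its partner cyclin gene Ccnb1 stood at 12.8 and 12.02 against 8.90, 14.8 and 22.5 (0.30, SE 0.35). For these genes the first 2 knockout libraries lay near the controls, and the groups overlapped for all but Bub1. Cenpp, a kinetochore subunit gene, stood at 30.2 and 27.7 against 29.2, 29.3 and 58.4 CPM (0.42, SE 0.32). On the opposite strand, 6 annotated genes overlap its span of 188.8 kb (Ippk, Ecm2, Aspn, Omd, Ogn and a pseudogene). Whether the counting used strand is not given in the sources used here, so the counts of Cenpp are uncertain. Mcm7, Cdc45, Ccna2 and Ccne2 also overlap genes on the opposite strand, and the same holds for them.

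The median log2 fold change in this gate was 0.14 for licensing, 0.31 for synthesis, 0.32 for cyclins and kinases, 0.35 for spindle and cytokinesis, 0.42 for chromosomes and checkpoint and 0.49 for E2F and repair, and the differences between roles were not tested. Mcm5 stood at 28.3 and 41.6 CPM in the controls and at 29.3, 31.2 and 52.5 in the knockouts (0.11, SE 0.29). Pcna stood at 60.3 and 59.5 against 56.0, 56.1 and 89.1 (0.16, SE 0.21). The 2 controls differed from each other by more for Mcm5 than the group means did. Rad51b stood at 46.8 and 53.1 against 51.6, 52.9 and 90.02 CPM (0.37, SE 0.25), and Neil3 at 21.6 and 20.8 against 26.1, 26.3 and 52.8 (0.72, SE 0.32). Neil3, Bub1 and Cdk6 were the 3 of 39 genes whose knockout libraries all lay above both controls, against 7.79% of all genes. Rad51b spans 517.4 kb on chromosome 12 (GRCm38, positions 79297282 to 79814690), of which 0.726% is exonic, and whether intronic reads were counted is not given in the sources used here.

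Of the 39 genes, only Cdk6 was not highest in knockout replicate 3 in the Foxp3-negative Cd4 gate. It stood at 109.3 and 109.1 CPM in the controls and at 185.4, 156.5 and 152.2 in the knockouts of the Foxp3-negative Cd4 gate. Every knockout library was above both controls, as for Neil3, Bub1 and 7.79% of all genes. The highest was replicate 1, which was below both controls for 15 of the 39 genes, a count given without a share of all genes. The log2 fold change was 0.59 (SE 0.11, unadjusted p = 0.0014, edgeR adjusted p = 0.82), and it was 0.65 without knockout replicate 3. DESeq2 gave 0.60 with an adjusted p of 0.0028, and edgeR without the filter on low counts gave an adjusted p of 0.013. Without that filter edgeR also called genes outside the 39, as counted in the closing section. Over all the alternatives run in this gate, the fold change lay between 0.50 and 0.67, and the call changed with the tool and the filter.

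Cdk6 was also higher in the knockout libraries of the other gates, without passing. In the macrophage gate it stood at 153 and 136 CPM against 216, 200 and 190 (0.48, edgeR adjusted p = 0.97), a gate that shares 2667 of its cells with others, and in the cells of that gate alone the value was 0.04. In the CD8 gate it stood at 136 and 160 against 191, 202 and 188 (0.41, edgeR adjusted p = 0.9998). The groups did not overlap in either gate (knockouts were all higher for 8.27% and 7.82% of all genes), and both gates share cells with the Cd4 gate. In the Foxp3 gate it stood at 175.1 and 155.8 against 219.5, 203.4 and 166.7 (0.25, SE 0.13, edgeR adjusted p = 0.86), where knockout replicate 3 fell between the controls, and with cells thinned to 2000 UMIs the value was -0.07. Over all retained cells it stood at 119 and 116 against 195, 167 and 157 (0.55, edgeR adjusted p = 0.71).

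**Figure D2:**
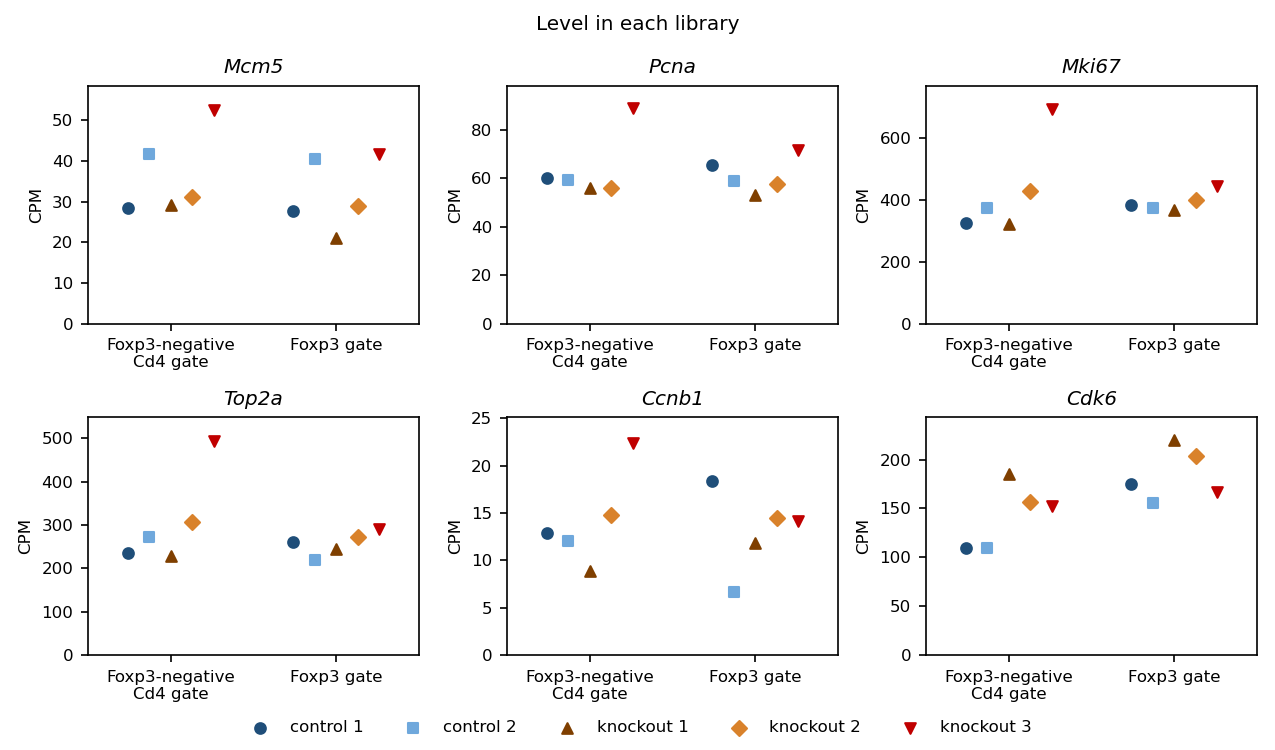
Level in CPM (vertical axes, from 0) of 6 genes in each of the 5 libraries, in the Foxp3-negative Cd4 gate (left of each panel) and the Foxp3 gate (right). Knockout replicate 3 is the highest point for Mcm5, Pcna, Mki67, Top2a and Ccnb1 in the Foxp3-negative Cd4 gate, and for Cdk6 the 3 knockout libraries (152.2 to 185.4) lie above the controls (109.1 and 109.3).

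In the Foxp3 gate, the cells in which Cre is made, the fold changes lay on both sides of 0. Of the 39 genes, 23 had a log2 fold change above 0 (49.8% of 11519 genes did) and 16 below, with a median of 0.05 and a range of -0.36 to 0.30. edgeR called 0 of the 39 (0% of all genes) and found 0 at an unadjusted p under 0.05 (3.45% of all genes were higher and 3.08% lower), and DESeq2 called 0 as well. The median was -0.16 with cells thinned to 2000 UMIs and -0.05 without knockout replicate 3. The summed macrophage markers stood at 559 and 891 CPM in the controls of this gate and at 1046, 1153 and 1543 in the knockouts, and their part in these values was not tested. Control and knockout libraries did not overlap for Cenpp and Neil3, which were higher (10.6% of all genes were), and for Aurkb and Cdk1, which were lower (10% of all genes).

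Aurkb, a mitotic kinase, stood at 15.1 and 15.4 CPM in the controls and at 13.3, 10.2 and 12.4 in the knockouts (-0.36, SE 0.19). Cdk1 stood at 24.7 and 22.5 against 21.5, 17.2 and 22.4 (-0.23, SE 0.17). Both lay lower in each knockout library, and neither passed over all genes (edgeR adjusted p = 0.86 and 0.93). Cenpp stood at 29.8 and 29.3 against 33.3, 32.4 and 36.5 CPM (0.20, SE 0.12), and Neil3 at 23.2 and 22.7 against 25.1, 24.9 and 34.5 (0.28, SE 0.18). Rad51b stood at 93.3 and 71.6 against 67.2, 56.1 and 81.2 (-0.30, SE 0.17), and its groups overlapped. Mki67 stood at 383.3 and 375.3 CPM against 369.3, 401.0 and 446.8 (0.10, SE 0.11), and Top2a at 260.2 and 218.7 against 244.0, 273.1 and 290.3 (0.17, SE 0.12). Knockout replicate 3 was again the highest library for 24 of the 39 genes, with a median ratio to the control mean of 1.21. The share of all genes for which it was the highest is not given here. Pcna stood at 65.4 and 58.9 against 53.3, 57.6 and 71.9 CPM (-0.04, SE 0.14), Mcm5 at 27.7 and 40.4 against 21.1, 28.8 and 41.6 (-0.15, SE 0.27) and Ccnb1 at 18.4 and 6.66 against 11.8, 14.5 and 14.1 (0.02, SE 0.36). The controls spanned most of the range of the knockouts for Mcm5 and Ccnb1. The remaining values named by smallest p were 0.15 (SE 0.12) for the formin Diaph3, 0.30 (SE 0.27) for the checkpoint adaptor Clspn, -0.11 (SE 0.17) for Mcm4 and -0.13 (SE 0.23) for Ccnb2.

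**Figure D3:**
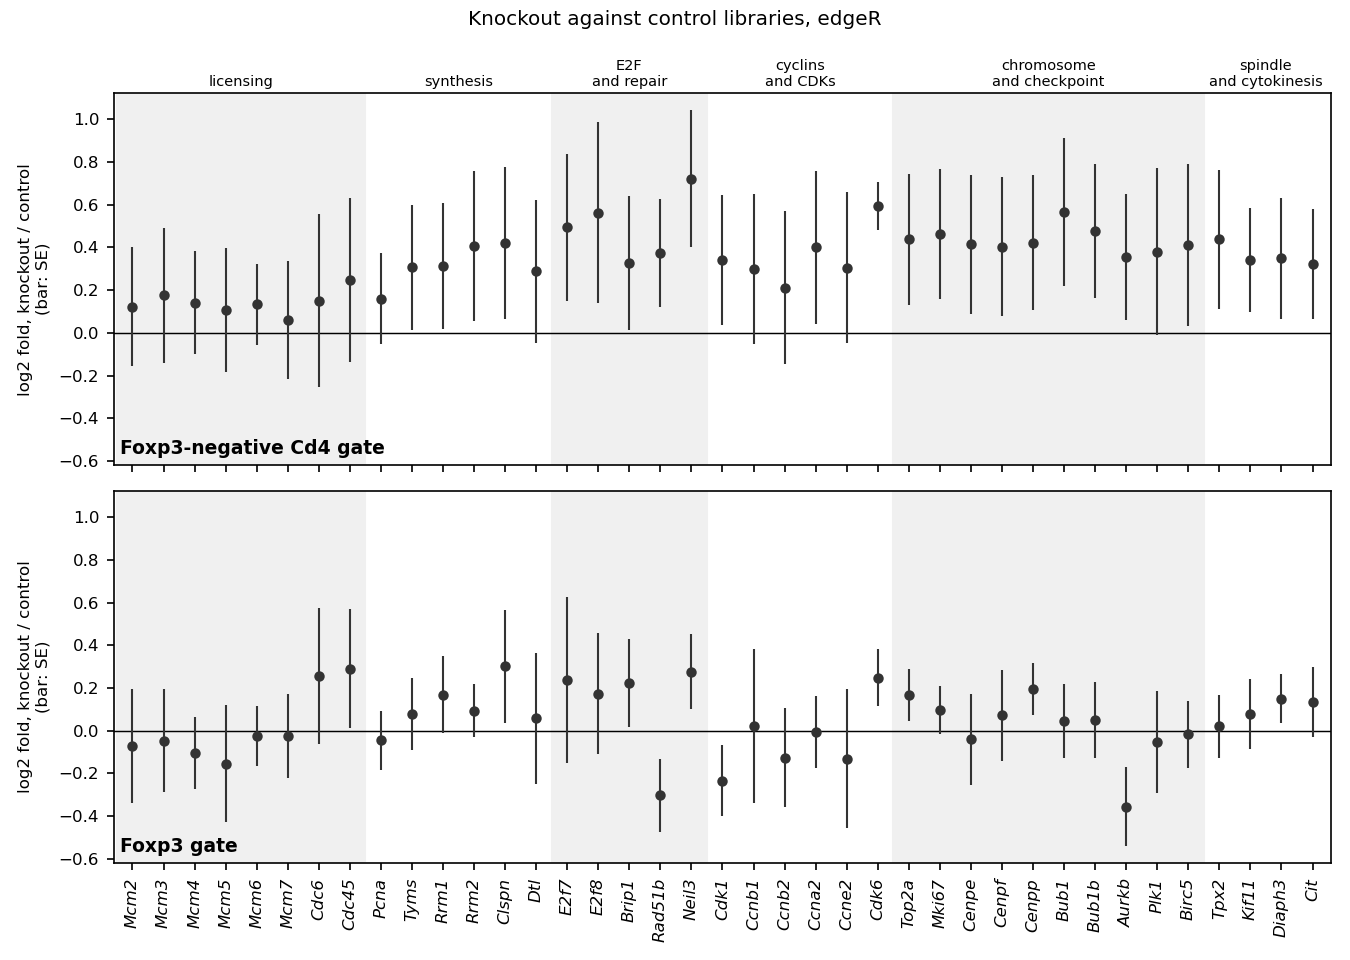
Log2 fold change of knockout over control (vertical axis, edgeR, bars of 1 SE) for the 39 genes grouped by role, in the Foxp3-negative Cd4 gate (top) and the Foxp3 gate (bottom). All 39 points lie above 0 at the top (median 0.35) and 23 of 39 at the bottom (median 0.05), and Cdk6 at the top has a short bar (0.59, SE 0.11).

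The difference between the gates was tested as an interaction, with the library as a term. The difference, Foxp3 gate minus Foxp3-negative Cd4 gate, was below 0 for 37 of the 39 genes (and for 52.8% of 13949 genes), with a median of -0.23, and edgeR called 0 of the 39 against 0.0502% of all genes. At an unadjusted p under 0.05, 6 of the 39 genes were lower, against 3.51% of all genes. They were Cdk6 (-0.35, SE 0.09, edgeR adjusted p = 0.32), Rad51b (-0.66, SE 0.17, edgeR adjusted p = 0.36), Aurkb (-0.65), Cdk1 (-0.54), Ccne2 (-0.40) and Neil3 (-0.36). DESeq2 called 0 of the 39 too. Without the filter on low counts edgeR called 6, and without control replicate 2 it called 1. The share of all genes called under these settings is not given here. Over the 39 genes, the median was -0.07 without knockout replicate 3 and -0.06 without control replicate 1.

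In the Foxp3-negative Cd4 gate, 30 of 32 further replication genes and 39 of 40 mitosis genes had fold changes above 0, with medians of 0.18 and 0.37, and edgeR called 0 in each list. Blm and Hells, both helicases, had 0.42 (SE 0.19) and 0.39 (SE 0.19), and Psrc1, a spindle protein, had 0.59 (SE 0.21). Among the 17 G1 genes, 10 were above 0 and 7 below, with a median of 0.09. The inhibitor Cdkn2a had 1.02 (SE 0.29) and the cyclin Ccnd1 -0.42 (SE 0.11), with edgeR adjusted p of 0.99 and 0.98. In the Foxp3 gate, 19 of 32, 17 of 40 and 9 of 17 genes of the replication, mitosis and G1 lists were above 0, with medians of 0.04, -0.01 and 0.03, and edgeR called 0 genes in each. Cdkn1b had -0.31 (SE 0.12, edgeR adjusted p = 0.73).

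At 2000 UMIs a cell, the share of cells with an Mki67 UMI was 13.9% and 14.1% in the Foxp3-negative Cd4 gate of the controls, against 13.9%, 18.5% and 23.0% in that of the knockouts. The exact (Clopper-Pearson) 95% intervals, which cover counting error only, were 12.9% to 15.0% in control replicate 1 and 21.3% to 24.8% in knockout replicate 3. The means were 14.0% ± 0.166 (SD, n = 2) and 18.5% ± 4.53 (SD, n = 3), a difference of 4.45 percentage points with p = 0.3 by a two-sided exact permutation test, which has 10 arrangements here and cannot reach 0.05. Without knockout replicate 3 the difference was 2.20, and without knockout replicate 1 it was 6.72. Before thinning, the shares were 35.0% and 23.8% against 32.1%, 31.2% and 37.7%.

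In the Foxp3 gate the controls had shares of 15.3% and 16.8% and the knockouts 15.0%, 17.3% and 14.7%, from 140 to 373 cells a library. The difference was -0.34 percentage points (p = 0.8, two-sided exact permutation test), and it turned to 6.25 at 4000 UMIs a cell and to 3.89 before thinning. It also crossed 0 without control replicate 2 (0.41), knockout replicate 1 (0.0066) or knockout replicate 3 (0.14), so no direction is given. Cells with a B cell profile (Cd79a and Ms4a1 and no Cd3e), taken as a measure of free RNA, had shares of 6.35% and 6.06% (controls) and 10.0%, 11.1% and 16.7% (knockouts), from only 9 to 63 cells a library. Their median depths were 5337 to 17970 UMIs before thinning, against 4486.5 to 13995 in the Foxp3-negative Cd4 gate. The B cell intervals were wide (2 of 12 cells in knockout replicate 3, 2.09% to 48.4%), and the order of the B cell share and the gate shares changed with the depth in knockout replicates 2 and 3, so in these few cells the background was not measured closely enough to set against either gate.

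Cells were also placed by their summed UMIs, with at least 3 UMIs of the replication genes, of the mitosis genes or of both. In the Foxp3-negative Cd4 gate, 9.96% and 12.9% of control cells and 9.95%, 12.4% and 22.0% of knockout cells reached either sum. In knockout replicate 3, 7.02% had replication alone, 8.69% had both and 6.26% had mitosis alone, against 3.41%, 2.75% and 3.80% in control replicate 1 and 5.70%, 3.90% and 3.26% in control replicate 2. In the Foxp3 gate the shares with either sum were 10.5% and 14.0% against 7.86%, 11.8% and 14.1%. These are ranges cut from a sum and not cell types: 35 cells of 373 in the Foxp3 gate of control replicate 1 lay 1 UMI below the cut.

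**Figure D4:**
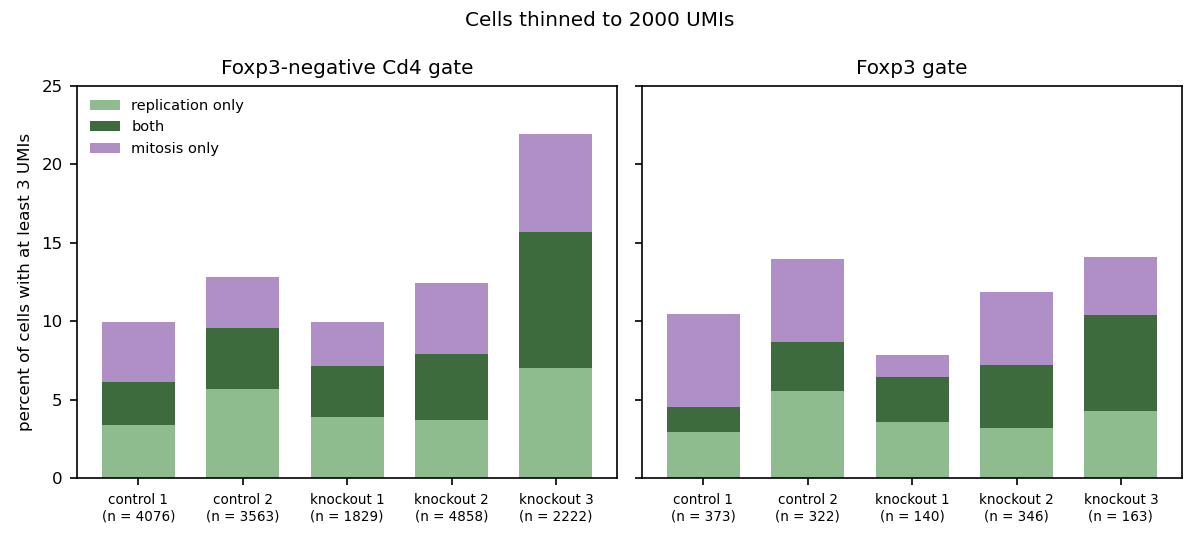
Percent of cells (vertical axis, from 0) with at least 3 UMIs of the replication genes only, of both sums, or of the mitosis genes only, in each of the 5 libraries after thinning to 2000 UMIs, for the Foxp3-negative Cd4 gate (left) and the Foxp3 gate (right). Knockout replicate 3 reaches 22.0% on the left, and the other 4 libraries 9.95% to 12.9%.

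A higher share of cells with Mki67 and a higher level per cell both raise a summed count, so the levels were also read within each class of cells. In Foxp3-negative Cd4 cells with an Mki67 UMI, the other 38 genes had a median ratio to the control mean of 0.825 in knockout replicate 1, 0.939 in replicate 2 and 1.36 in replicate 3, which was the highest library for 29 of them. In cells without an Mki67 UMI the ratios were 0.956, 0.949 and 1.34. For these 38 genes, knockout replicate 3 thus stood above the others in both classes of cells. The share of all genes for which it was the highest is not given here. An Mki67 UMI can be missed at 2000 UMIs: in knockout replicate 3 the share was 23.0% there and 37.7% before thinning. Cells without an Mki67 UMI can thus include cycling cells, so this split cannot tell a higher share from a higher level per cell. Cells with Mki67 were deeper before thinning than cells without, by 1.24 to 1.61 times in the median.

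Foxp3 cells and Foxp3-negative Cd4 cells were then compared within libraries. Using only cells of a single gate, edgeR called 1 of the 39 genes higher and 0 lower in the Foxp3 gate, against 10.6% and 9% of 13350 genes, and 32 of the 39 log2 differences were below 0 (54.1% of all genes). The gene was Cdk6, whose ratio was 1.584 and 1.502 in the 2 control libraries, against 1.18, 1.23 and 1.03 in the knockouts (0.38, SE 0.08, edgeR adjusted p = 0.0054). Top2a had -0.30 (SE 0.13) and ratios of 1.13 and 0.780 against 0.911, 0.852 and 0.477, the lowest in knockout replicate 3. With cells thinned to 2000 UMIs, 7 genes were called, 6 of them lower, among them Top2a (-0.43) and the helicase gene Brip1 (-0.84). Without knockout replicate 3, edgeR called 3 genes, all higher, and without control replicate 1 or knockout replicate 2 it called 2, of which 1 was lower. The shares of all genes given above belong to the main setting, so the counts under other settings are description only. Of the 32 further replication genes, edgeR called 5 lower in Foxp3 cells and 0 higher. Those with the smallest p were the single-strand DNA binding subunit Rpa2 (-0.25, SE 0.06), Pola1 (-0.19, SE 0.05) and Atad2 (-0.22, SE 0.06). Of the 40 mitosis genes it called 1 higher, the condensin subunit Smc4 (0.22, SE 0.07), and 0 lower. Of the 17 G1 genes it called 3 higher, Cdkn1b (0.28), the retinoblastoma relative Rbl2 (0.27) and Myc (0.56), and 3 lower, Ccnd3 (-0.29), Ccnd2 (-0.15) and Rbl1 (-0.15).

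The CD8 and macrophage gates gave fewer stable values. Of 719 CD8 gate cells, 511 also met another gate and were left out of the contrast between gates. In knockout replicate 3 this was 49 of 63 cells, so few were left. Against Foxp3-negative Cd4 cells, edgeR called Mki67 (-0.78, SE 0.19), Cenpe (-0.77, SE 0.21) and Cenpf (-0.88, SE 0.24) lower in CD8 cells of a single gate, against 3.63% of 12179 genes, and 0 with thinned cells or in DESeq2. Without control replicate 1 it called 8 lower. Of 3024 macrophage gate cells, 2667 were left out in the same way, among them 307 of 350 in knockout replicate 1. In the macrophage-gate cells that were left, edgeR called 9 genes lower and Birc5 higher (0.49, SE 0.19), against 12.7% and 14% of 12665 genes. Among the 9, those with the smallest p were Mki67 (-0.87, SE 0.13), Mcm4 (-0.73, SE 0.16), Diaph3 (-0.61, SE 0.16), Cenpp (-0.92, SE 0.28), Top2a (-0.38, SE 0.12) and Kif11 (-0.56, SE 0.18). With thinned cells none of these 10 was called, 6 other genes were called higher, and Mki67 turned to 0.16, Top2a to 0.13 and Cenpp to 0.20, so no direction is given for them. Without control replicate 2 edgeR called 5 genes, and without knockout replicate 3 it called 6. The shares of all genes given for these 2 contrasts belong to the main setting, so the counts under other settings are description only. Between the genotypes, edgeR called 0 of the 39 genes in the CD8 gate (0% of 9024 genes), the macrophage gate (0% of 12005) and over all retained cells (0% of 15245), with median log2 fold changes of 0.03, 0.17 and 0.32. Without knockout replicate 3 these were -0.43, -0.19 and -0.03. At an unadjusted p under 0.05 it found 1 gene higher and 1 lower in the CD8 gate, against 2.12% and 1.54% of all genes, and 1 higher in the macrophage gate (1.82%) and over all retained cells (3.68%). It found 0 lower in these, against 1.78% and 2.22% of all genes. DESeq2 called 0 of the 39 in the CD8 and macrophage gates and 1, Cdk6, over all retained cells. The share of all genes that it called there is not given here.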

How the data were processed

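Per the file headers, the deposited values are unnormalized counts of UMIs for each gene in each barcode, which the authors made with Cell Ranger 8.0.0. The submitters' processing notes also name Cell Ranger 8.0, the mm10 build and Seurat 5.1.0, and the counting options are not given in the sources used here. All other steps were computed here from the counts. Cells needed at least 500 genes and under 10% mitochondrial UMIs. UMIs were summed per library and gate, and libraries, not cells, were the replicates. edgeR 4.0.16 (quasi-likelihood test, TMM scaling, filterByExpr) in R 4.3.3 was fitted on all genes passing the filter. The p-values were adjusted by Benjamini-Hochberg, and adjusted p under 0.05 passed. SE is the log2 fold change divided by the square root of F. Contrasts within libraries had the library as a term. Those between gates used cells that met a single gate, whereas the interaction and the Mki67 split used all cells of a gate. The Mki67 split and the shares used cells thinned to 2000 UMIs (33520 of 38417 cells), with gates retaken after thinning. The scripts were tested on simulated data. Scrublet called 2 cells doublets, so it had not worked, and removing the highest 5% of scores was an alternative.

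The 39 genes, the lists of further genes and the marker lists were chosen with earlier results of these data known. Named with values were up to 6 of the 39 genes per direction with the smallest p in a comparison, in the knockout comparisons also Mki67, Top2a, Pcna, Mcm5, Cdk1, Ccnb1, Rad51b, Cenpp and Cdk6, and up to 3 genes of each further list per direction, of which 1 is not reported here. Cenpf, Ccnb2 and the extremes of a role were named as examples after their values were seen. Alternatives were DESeq2 1.42.0, RLE factors, no count filter, other cell filters, other thinning depths (1000 and 4000 UMIs), cells of several gates, a replicate block and leaving out each library.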

Additional observations from a re-analysis of the deposited data

How the results depend on the processing

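The 37 genes higher in Foxp3-negative Cd4 cells with Mki67 were 37 in number under each alternative run. In the Foxp3 gate that count (21) was 2 with cells thinned to 1000 UMIs, 36 with 4000, and 16 to 23 when a library was left out. Between the genotypes edgeR's count of 0 became 1 in the Foxp3-negative Cd4 gate with DESeq2 and 1 without the count filter, and 1 over all retained cells with DESeq2. Without the count filter, 452 genes of the whole table were called in the Foxp3 gate and 191 in the Foxp3-negative Cd4 gate. The interaction count (0) was 6 without the count filter and 0 to 1 with a library left out. For Foxp3 against Foxp3-negative Cd4 cells, the count of 1 was 9 without the filter, 6 with the highest Scrublet scores removed, 7 with thinned cells, 3 with cells of several gates kept and 1 to 3 with a library left out. For CD8 cells the count of 3 was 0 with DESeq2, 0 with thinned cells, 1 with cells of several gates kept and 2 to 8 with a library left out. For macrophage-gate cells the count of 10 was 4, 6 and 18 under those settings and 5 to 12 with a library left out, and thinning turned Mki67 to 0.16, Cenpp to 0.20 and Top2a to 0.13, while keeping cells of several gates turned Ccna2 to -0.19. The difference in Mki67 share in the Foxp3 gate (-0.34 percentage points) became 6.25 at 4000 UMIs, 3.89 unthinned and 0.087 with the strict cell filter, and lay between -1.16 and 0.41 with a library left out. The share with at least 3 UMIs of a sum moved there from -0.94 to 6.14 at 4000 UMIs. The causes were not tested.

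Control and knockout libraries share only the replicate numbers 1 and 2 and the labels pair nothing. In the Foxp3-negative Cd4 gate same-numbered libraries had correlations of 0.15 and -0.09 in their deviations over genes. With a replicate block, 0 of the 39 genes passed in each gate. The block leaves knockout replicate 3 without a partner, and the median fold change was -0.02 in the Foxp3-negative Cd4 gate, -0.03 in the Foxp3 gate, -0.03 over all cells and -0.22 in the macrophage gate. Cdk6 had 0.64 in the Foxp3-negative Cd4 gate. Of 1641 alternative values of single genes, 1439 kept their direction and their side of the threshold, whatever the change in size. Another 128 changed direction with no call in either setting, and 4 changed direction with a call in at least 1. With the direction kept, 40 passed newly and 30 no longer passed. Few cells limit the Foxp3 gate, with 140 to 373 a library at 2000 UMIs.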
